A study of Mus musculus with 10 samples.

Results

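The 35 genes described here encode proteins that sense damaged DNA, signal its presence and repair it. They were taken by symbol from the deposited count table, in which all 35 were found among 24421 genes, and they were measured in sorted bone marrow erythroid progenitors of 10 mice. The study transplanted bone marrow cells of 4 genotypes into lethally irradiated BoyJ recipients, gave tamoxifen, and collected bone marrow 8 weeks after the transplant. Cells carrying both CD71 and Ter119 on their surface, a gate that marks erythroblasts, were sorted, and their RNA was sequenced.

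The donors carried Rosa-CreERT2, which produces a tamoxifen-dependent Cre recombinase in all cell types, so that the Ddx41 deletion was not restricted to erythroid cells. The 4 groups were Ddx41+/+ Trp53+/+ (3 mice, replicates 10, 11 and 12), Ddx41+/- Trp53+/+ (2 mice, replicates 32 and 34), Ddx41+/+ Trp53+/- (3 mice, replicates 22, 23 and 24) and Ddx41+/- Trp53+/- (2 mice, replicates 46 and 47). Ddx41+/- cells came from donors with 1 floxed Ddx41 allele and 1 wild-type allele, and Trp53+/- donors carried 1 null allele in the germline. The protocol in the labels gives Rosa-CreERT2, the transplant and 1 mg of tamoxifen, in 2 rounds of 5 days, for all 4 groups, the Ddx41+/+ Trp53+/+ controls included. Each library came from 1 mouse, and the age of the donors is not given in the sources used here.

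Double-strand breaks are recognized by the Mre11-Rad50-Nbn complex, which activates the kinase Atm, while exposed single-stranded DNA activates Atr. Both kinases signal through Chek2, Chek1 and p53, the product of Trp53, to stop the cell cycle. Breaks are then joined end to end, or copied from the sister chromatid by homologous recombination, a route that is open in S and G2 phase. Crosslinks are removed by the Fanconi anemia proteins, and damaged or mispaired bases by excision and mismatch repair. Dividing erythroblasts replicate their genome in each of several rapid divisions, and Ddx41 is an RNA helicase whose gene is mutated in familial and sporadic myeloid neoplasms.

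Each library held 7866648 to 20283930 counts on genes. Levels are given as CPM, in which counts are scaled to the effective total of the library, and where genes are compared with each other as RPKM, which also divides by the exon length in kilobases. Both targeted genes were lower in the mice labelled heterozygous for them. Ddx41 was at 12.5 to 16.5 CPM in the 4 Ddx41+/- mice and at 21.9 to 26.6 CPM in the 6 Ddx41+/+ mice, and Trp53 was at 40.3 to 46.2 CPM in the 5 Trp53+/- mice and at 57.4 to 68.1 CPM in the 5 Trp53+/+ mice. Their log2 fold changes over both genotypes of the other gene were -0.70 (SE 0.108, adjusted p = 0.0173) and -0.48 (SE 0.069, adjusted p = 0.00355) by edgeR. Of the genes that define the sorted cells, Tfrc, which encodes CD71, was at 2692 to 3458 CPM. Of the other erythroid markers, Hba-a1 was at 0.106 to 1.28 CPM and Hbb-bt had no count in any library. Neutrophil markers summed to 4944 to 8471 CPM, so RNA of other marrow cells was present in every genotype, and in such bulk samples fewer cells of a type and less RNA per cell cannot be told apart.

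Promoter sequences are shown first for the 4 genes on which the comparisons below turn: Blm, Brca1 and Xrcc3, which had lower levels in Ddx41+/- Trp53+/+ mice than in Ddx41+/+ Trp53+/+ mice, and Lig4, which was highest in Ddx41+/+ Trp53+/- mice. They are the 250 bases before a transcription start listed in RefSeq (GRCm38.p6), on the strand of the gene. Capitals mark CCAAT on either strand, the box bound by NF-Y, a factor found at many cell-cycle promoters. The Blm window is chr7:80534999-80535248, that of Brca1 is chr11:101551956-101552205, that of Xrcc3 is chr12:111813880-111814129 and that of Lig4 is chr8:9977681-9977930. All 4 genes are read from the minus strand. In the GENCODE M21 annotation Blm begins at chr7:80535119 and Lig4 at chr8:9977686, which lie inside these windows. Another promoter listed for Lig4, chr8:9976312-9976561, is not shown and held no CCAAT.

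Blm: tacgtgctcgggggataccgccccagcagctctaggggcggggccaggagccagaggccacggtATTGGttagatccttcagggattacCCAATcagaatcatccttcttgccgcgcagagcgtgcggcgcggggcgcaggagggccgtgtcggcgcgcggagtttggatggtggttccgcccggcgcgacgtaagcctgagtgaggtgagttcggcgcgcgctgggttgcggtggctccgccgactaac

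Brca1: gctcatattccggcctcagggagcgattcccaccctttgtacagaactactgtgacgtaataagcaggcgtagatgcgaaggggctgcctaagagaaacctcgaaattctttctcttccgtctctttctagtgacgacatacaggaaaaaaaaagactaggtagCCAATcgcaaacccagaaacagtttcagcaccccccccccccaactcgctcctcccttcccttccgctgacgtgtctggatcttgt

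Xrcc3: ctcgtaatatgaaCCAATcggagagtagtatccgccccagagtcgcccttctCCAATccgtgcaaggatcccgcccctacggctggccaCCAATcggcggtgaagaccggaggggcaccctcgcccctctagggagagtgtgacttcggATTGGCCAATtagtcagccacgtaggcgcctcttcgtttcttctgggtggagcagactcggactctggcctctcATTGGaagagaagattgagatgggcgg

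Lig4: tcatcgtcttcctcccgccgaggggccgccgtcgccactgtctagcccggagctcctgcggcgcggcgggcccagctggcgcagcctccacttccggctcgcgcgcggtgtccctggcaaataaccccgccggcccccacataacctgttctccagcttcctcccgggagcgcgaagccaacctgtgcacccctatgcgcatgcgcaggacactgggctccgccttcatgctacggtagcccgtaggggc

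Xrcc3 held 6 CCAAT boxes in its window, Blm 2, Brca1 1 and Lig4 none. These 4 genes were chosen for their differences, none of which passed the edgeR test described below. Other genes also lay lower without overlap in the Ddx41+/- Trp53+/+ mice. Of these, Atm, Chek2, Ercc5, Fancm and Msh6 held CCAAT, and Rad51c, Rnf168 and Xrcc6 did not. A promoter was listed for 28 of the 35 genes, and 15 of these 28 (53.6%) held CCAAT in the window, beside 40.8% of the 9047 tested genes with a listed promoter and 37.5% of all 27025 listed genes. An E2F site, searched on both strands as TTTCCCGC, TTTGGCGC or TTTCGCGC, lay in the window of Bard1, Brca2, Chek2, Mdc1 and Xrcc6, which is 17.9% of the 28, beside 3.6% of the tested and 1.78% of the listed genes. The cell-cycle homology region TTTGAA, searched on both strands, was found for Bard1, Ercc5 and Rnf8 (10.7% of the 28, 12.7% of the tested genes, 18.3% of the listed genes). A full p53 site was found in none of the 28 windows and in 0.0553% of the tested genes. No promoter was listed for Ddb2, Fancd2, Nbn, Prkdc, Rad50, Xpc and Xrcc2, so these genes were not searched for any motif. No motif holds the letters of another, a match is not evidence of binding, and the shares are descriptions without a test.

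All 35 genes were expressed above the filter on low counts in these cells, and their levels spanned a wide range. Brca1, the tumor suppressor that directs homologous recombination, was highest, at 37.5 ± 2.08 RPKM in the Ddx41+/+ Trp53+/+ mice (SD, n = 3). Chek2, the checkpoint kinase downstream of Atm, followed at 34.1 ± 1.62 RPKM and Mdc1, the scaffold that binds phosphorylated H2AX at breaks, at 31.6 ± 2.05 RPKM. The mice of neighbors in this order overlapped for Brca1 with Chek2 and for Chek2 with Mdc1. The lowest were Lig4, the ligase of end joining, at 0.262 ± 0.122 RPKM, Atr, the kinase of replication stress, at 0.54 ± 0.0181 RPKM, and Rnf8, a ubiquitin ligase at breaks, at 0.615 ± 0.0758 RPKM. Rnf8 and Atr overlapped between mice, and all 3 mice had less Lig4 than Atr. Brca1 was thus 143-fold above Lig4 per length of exon. The exon length joins the exons of all transcripts of a gene, 23629 bases for Atr and 11703 for Rnf8, and these ranks depend on it. In CPM, which does not divide by length, Atr had a mean of 12.75 in the same mice. This was above Xpc (5.10 CPM), Ddb2 (5.05 CPM) and Ercc1 (3.54 CPM), and Rnf8, at 7.20 CPM, was also above them.

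**Figure D1:**
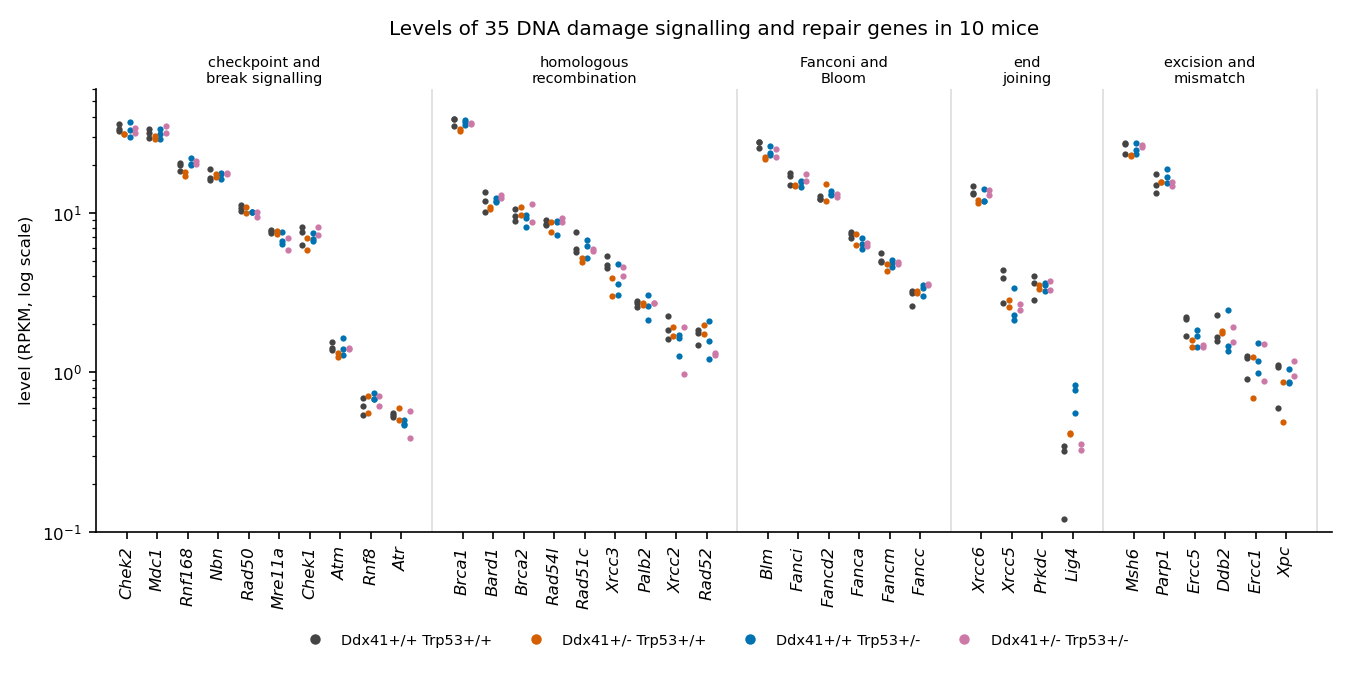
Level of each of the 35 genes in each of the 10 mice, in RPKM on a log scale, grouped by role and ordered within a role by the mean of the Ddx41+/+ Trp53+/+ mice. Each point is 1 mouse and colors mark the genotype. The mice of the 4 genotypes lie close together for most genes, and Lig4 has the widest spread.

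Within each role the levels differed more between genes than between mice. Among the checkpoint genes, Atm was at 1.45 ± 0.0955 RPKM, far under its substrate Chek2, and Chek1, the kinase downstream of Atr, at 7.32 ± 0.919 RPKM stood above Atr. The 3 members of the break-sensing complex were at 17.1 ± 1.48 RPKM for Nbn, 10.7 ± 0.515 RPKM for Rad50 and 7.67 ± 0.186 RPKM for Mre11a (SD, n = 3 each). The partners Brca1 and Bard1, which form a ubiquitin ligase together, were at 37.5 and 11.8 RPKM. The end-binding Ku subunits were unequal, at 13.7 ± 0.898 RPKM for Xrcc6, which encodes Ku70, and 3.66 ± 0.86 RPKM for Xrcc5, which encodes Ku80, while the kinase they recruit, Prkdc, was at 3.5 ± 0.614 RPKM. In the nucleotide excision pathway Xpc and Ddb2, which recognize lesions, were at 0.928 ± 0.291 and 1.85 ± 0.395 RPKM, the nuclease Ercc5 at 2.02 ± 0.301 RPKM and the nuclease subunit Ercc1 at 1.14 ± 0.198 RPKM. Parp1, which marks strand breaks, and Msh6, which binds mismatches, were higher, at 15.3 ± 2.06 and 25.9 ± 2.36 RPKM.

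The coefficient of variation over all mice, genotypes included, had a median of 9.08% over the 35 genes and lay under 10% for 22 of them. Rad50 varied least, at 4.81%, from 9.45 to 11.2 RPKM. Above 20% were Lig4 (48.6%), Xrcc5 and Xpc (24.8% each), Ercc1 (23.8%) and Xrcc2 (21.2%), which all lie in the lower part of the range and whose counts are few. Lig4 was the most variable gene of the list, with 13 to 74 counts per library and a 6.82-fold range between mice.

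The first comparison asked how loss of 1 Ddx41 allele changed these genes in mice with both Trp53 alleles. In Ddx41+/- Trp53+/+ mice none of the 35 genes passed the test against Ddx41+/+ Trp53+/+ mice (edgeR quasi-likelihood test, fold change over 1.5 and Benjamini-Hochberg adjusted p under 0.05), beside 64 of all 11846 tested genes (0.54%). The smallest adjusted p was 0.18, for Blm. The genes leaned lower as a list, with 27 of 35 below their level in the controls and a median log2 fold change of -0.11, beside 49.7% of all tested genes and a median of 0.001. Under an unadjusted p of 0.05 were 5 genes, all lower, which is 14.3% of the list beside 9.64% of all tested genes. This count was 8 without replicate 10, 3 without replicate 11, 34, 46 or 47 and 2 without replicate 32. For 25 of the 35 genes the 95% interval of the difference lay within 1.5-fold in either direction, so that a larger change was not seen in them, while for the other 10 it reached beyond.

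Blm, the RecQ helicase that unwinds recombination intermediates and is lost in Bloom syndrome, had the smallest p. It was at 224.9, 242 and 244 CPM in the Ddx41+/+ Trp53+/+ mice and at 197.9 and 190.6 CPM in the Ddx41+/- Trp53+/+ mice. Both Ddx41+/- mice lay below all 3 controls. The log2 fold change was -0.29 (SE 0.0827, adjusted p = 0.18), and an exact permutation test of the 5 values gave a two-sided p = 0.2, the smallest that 2 mice against 3 allow. In the Trp53+/- background Blm was at 230.4, 200.6 and 208.2 CPM with Ddx41+/+ and at 196.6 and 219.3 CPM with Ddx41+/-, and these mice overlapped. The 2 differences differed by 0.25 on the log2 scale (SE 0.116, adjusted p = 0.994 for the interaction in edgeR).

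Brca1 was at 299.6, 329.6 and 331 CPM in the controls and at 277.4 and 284.7 CPM in the Ddx41+/- Trp53+/+ mice, again without overlap (log2 fold change -0.19, SE 0.0719, adjusted p = 0.377). With Trp53+/- it was at 315, 328 and 304.9 CPM with both Ddx41 alleles and at 311.9 and 307.6 CPM with 1. The Ddx41+/- mice of that background lay among the Ddx41+/+ mice.

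Xrcc3, which acts in homologous recombination, was at 14.7, 12.4 and 12.9 CPM in the controls and at 10.7 and 8.26 CPM in the Ddx41+/- Trp53+/+ mice. This was the largest lower value of the list, a log2 fold change of -0.47 (SE 0.206, adjusted p = 0.469). In the Ddx41+/+ Trp53+/- mice it was at 8.4, 13.04 and 9.84 CPM and in the Ddx41+/- Trp53+/- mice at 11.1 and 12.6 CPM. The lowest mice were thus found in both single heterozygous genotypes, and the interaction was 0.65 on the log2 scale (SE 0.286, adjusted p = 0.991).

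The other members of the homologous recombination group showed smaller differences. Rad51c, of the same complex as Xrcc3, was lower in Ddx41+/- Trp53+/+ mice by a log2 fold change of -0.33 (SE 0.153, adjusted p = 0.504) without overlap between the mice. Of the 9 genes of this role 7 were lower, with a median of -0.08, and Brca2 and Rad52 were higher. In the excision and mismatch group 5 of 6 were lower (median -0.18). Ercc5, the nuclease that cuts 3′ of a lesion, was at 12.7, 13.02 and 9.82 CPM in the controls and at 8.52 and 9.40 CPM in the Ddx41+/- Trp53+/+ mice (log2 fold change -0.42, SE 0.194, adjusted p = 0.512). Of the 6 Fanconi and Bloom genes 4 were lower, and of the 10 checkpoint and break signalling genes 8 (median -0.06).

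**Figure D2:**
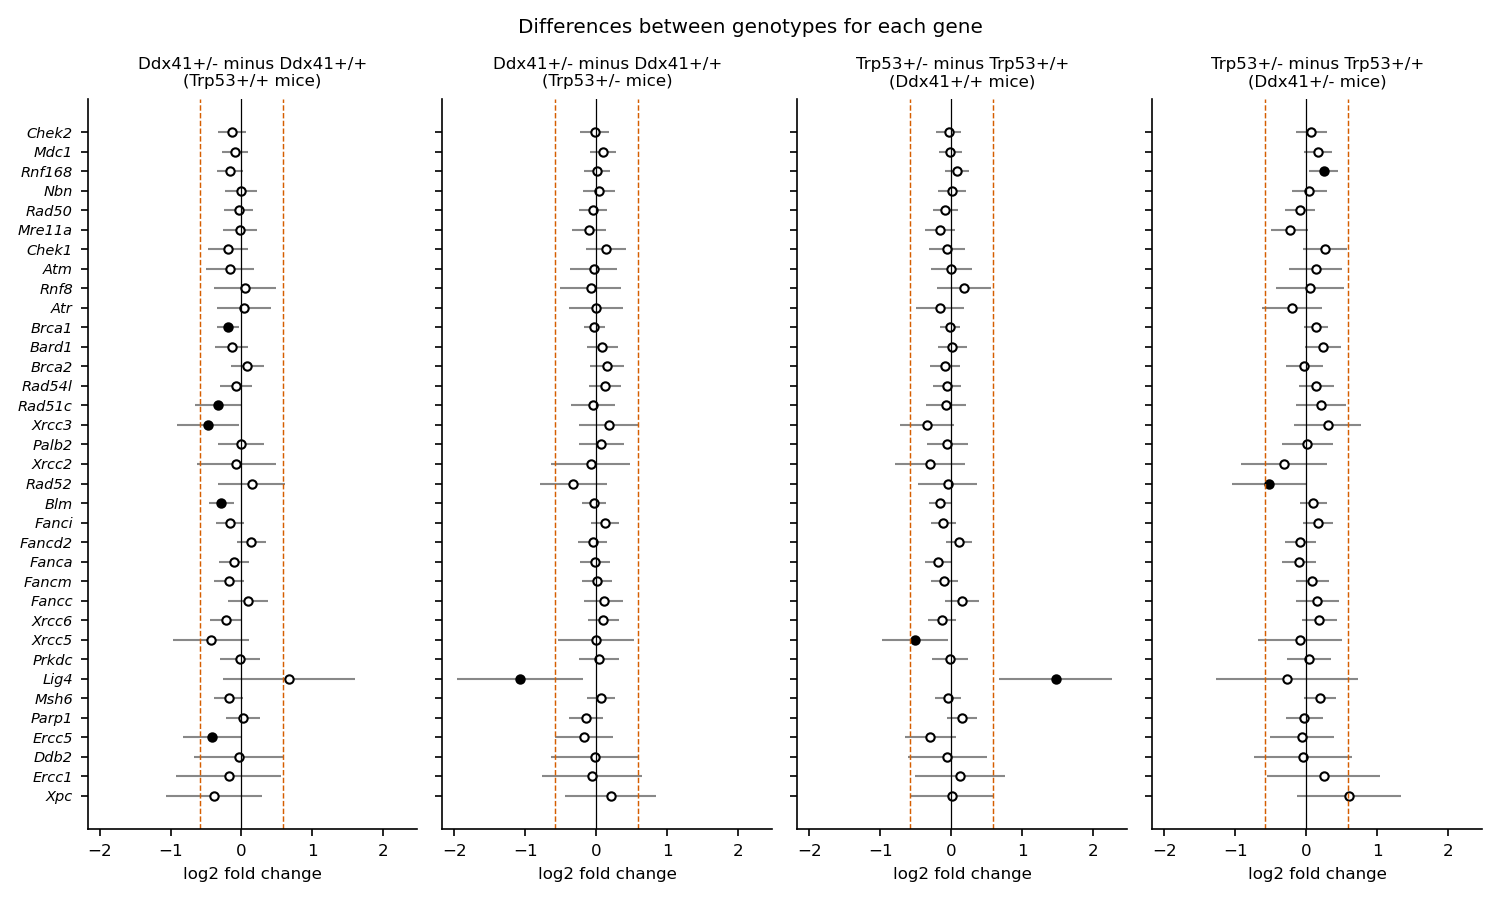
Log2 fold change of each gene, with its 95% interval, in the 4 comparisons of single genotypes. Filled points had an unadjusted p under 0.05, and dashed lines mark 1.5-fold in either direction. The points of the first panel lean to the left of 0, none of the 35 genes passed the adjusted test in any panel, and Lig4 stands furthest from 0 in both middle panels.

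The mice of the 2 genotypes did not overlap for 12 of the 35 genes (34.3%), 11 of them lower and Lig4 higher, beside 24.9% of all tested genes. The 11 were Atm, Blm, Brca1, Chek2, Ercc5, Fancm, Msh6, Rad51c, Rnf168, Xrcc3 and Xrcc6. Lists of cell-cycle genes leaned the same way in this comparison. Of 23 S phase genes 19 were lower (median log2 fold change -0.12) and of 20 G2 and mitosis genes 17 (median -0.10), and none of either list passed the test. Whether the lower cell-cycle genes bear on the repair genes was not tested. B cell markers moved with the same comparison in the other direction, with 11 of 11 higher (2 called), and their summed level was 209.1 to 349.8 CPM in the controls and 352 to 501 CPM in the Ddx41+/- Trp53+/+ mice. The part of these cells in the values of the repair genes was not tested.

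In the same mice, 1 p53 target gene was called. Cdkn1a, the p53-induced inhibitor of cyclin-dependent kinases, rose from 6.71 to 7.68 CPM in the controls to 16.6 and 15.6 CPM (log2 fold change 1.20, SE 0.219, adjusted p = 0.0153). The call was lost without replicate 11, 32 or 34 (adjusted p = 0.0574, 0.167 and 0.145). Of 23 tested p53 targets 14 were higher and 9 lower (median log2 fold change 0.15). Repair genes linked to p53 in the literature on human cells did not pass the test. Ddb2, which recognizes ultraviolet lesions, was at 4.54, 4.33 and 6.30 CPM in the controls and at 4.99 and 4.83 CPM in the Ddx41+/- Trp53+/+ mice (log2 fold change -0.03, SE 0.298, 95% interval -0.66 to 0.60). Xpc was at 5.96, 3.26 and 6.09 CPM against 4.81 and 2.67 CPM (log2 fold change -0.39, SE 0.322). Ercc5, also on the p53 target list, lay lower, as given above. The intervals of Ddb2 and Xpc reach beyond 1.5-fold, so these data do not bound their change to that size.

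**Figure D3:**
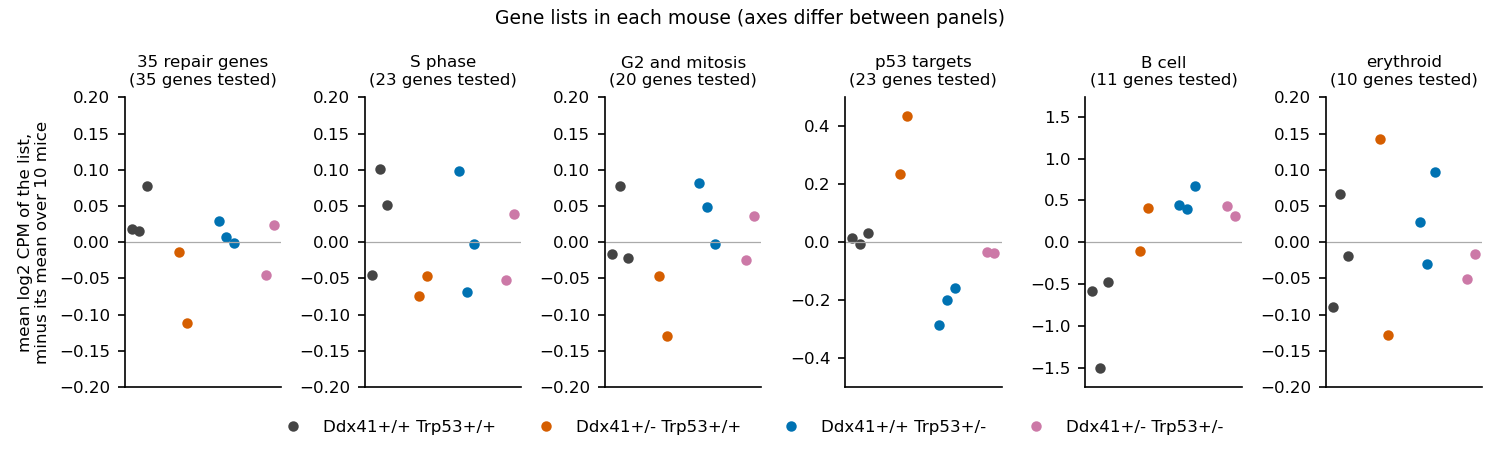
Mean log2 CPM of a gene list in each mouse, minus the mean of that list over the 10 mice, for the 35 repair genes and 5 other lists. Each point is 1 mouse, and the vertical axes differ between panels. The repair genes stay within -0.112 and 0.0772 in all mice, while the p53 targets range from -0.287 in a Ddx41+/+ Trp53+/- mouse to 0.435 in a Ddx41+/- Trp53+/+ mouse.

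The checkpoint kinases were not called in any comparison. Atm was at 14.1 to 16.1 CPM in the controls, at 13.6 and 12.95 CPM in Ddx41+/- Trp53+/+ mice, at 13.2 to 17.1 CPM in Ddx41+/+ Trp53+/- mice and at 14.4 and 14.8 CPM in mice heterozygous for both. Atr was at 12.4 to 13.2, 14.1 and 11.9, 11.1 to 11.9, and 9.18 and 13.5 CPM in the same order of genotypes. Chek1 was at 29.2, 35.1 and 37.5 CPM in the controls and at 32.1 and 26.9 CPM in Ddx41+/- Trp53+/+ mice, and Chek2 at 107.6, 98.2 and 100.9 against 93.1 and 93.2 CPM. For all 4 kinases the 95% interval of the Ddx41 difference lay within 1.5-fold in both Trp53 backgrounds, with log2 fold changes between -0.19 and 0.14. Atm and Chek2 were nonetheless lower without overlap in the Ddx41+/- Trp53+/+ mice than in the controls, and Atr in the Ddx41+/+ Trp53+/- mice. Atm, Chek1 and Chek2 were higher without overlap in the Ddx41+/- Trp53+/- mice than in the Ddx41+/- Trp53+/+ mice. Of all tested genes 24.9%, 14.1% and 37.3% did not overlap in these comparisons, in that order. The interval of Atr reached beyond 1.5-fold for Trp53 with Ddx41+/- (log2 fold change -0.20, 95% interval -0.63 to 0.22), and those of Atm, Atr and Chek1 did for the interaction.

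In mice with 1 Trp53 allele, loss of 1 Ddx41 allele left the list centered on 0. Ddx41+/- Trp53+/- mice were compared with Ddx41+/+ Trp53+/- mice, and none of the 35 genes passed, beside 0.0422% of all tested genes. With 16 genes higher and 19 lower, the median difference was -0.01 on the log2 scale. Only Lig4 was under an unadjusted p of 0.05 (2.86% of the list, beside 3.75% of all tested genes), and 28 of the 35 intervals lay within 1.5-fold. The mice did not overlap for Bard1, which was higher, and for Lig4 and Rad50, which were lower (3 genes, 8.57%, beside 20% of all tested genes).

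The test of the difference between the 2 Ddx41 effects called none of the 35 genes, beside 0.0675% of all tested genes. Under an unadjusted p of 0.05 were Lig4, Xrcc3, Blm and Xrcc6 (11.4% of the list, beside 5.01%). The effect was higher with Trp53+/- than with Trp53+/+ for 26 of the 35 genes, with a median of 0.12 on the log2 scale. Over all tested genes 51.54% had a lower effect, and the median was -0.008. The test holds the same Trp53+/+ mice as the first comparison, so its lean and that of the first are not independent. With 2 or 3 mice per genotype the intervals of this test were wide, and for 15 genes they reached beyond 1.5-fold.

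Lig4, which seals the ends in non-homologous end joining together with Xrcc4, had the largest difference of the list, and it came with loss of 1 Trp53 allele. It was at 1.79, 0.632 and 1.66 CPM in the Ddx41+/+ Trp53+/+ mice and at 4, 2.91 and 4.31 CPM in the Ddx41+/+ Trp53+/- mice. All 3 Trp53+/- mice lay above all 3 controls, from 40, 47 and 74 counts against 34, 13 and 24. The log2 fold change was 1.47 (SE 0.376, 95% interval 0.67 to 2.26), but the adjusted p was 0.0903 in the edgeR quasi-likelihood test, so the gene was not called. An exact two-sided permutation test of the 6 values gave p = 0.1, the smallest that 3 against 3 mice allow. With DESeq2, with the likelihood ratio test and with no filter on low counts the gene passed (adjusted p = 0.0288, 0.00739 and 0.00595). Leaving out 1 mouse at a time gave log2 fold changes of 1.10 to 1.75, and without replicate 24 of the Ddx41+/+ Trp53+/- mice the adjusted p was 0.412 in edgeR.

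Lig4 did not lie high in the mice heterozygous for both genes. It was at 1.69 and 1.85 CPM in the Ddx41+/- Trp53+/- mice and at 2.13 and 2.16 CPM in the Ddx41+/- Trp53+/+ mice. The 3 Ddx41+/+ Trp53+/- mice were therefore above all 7 others. The Ddx41 difference of Lig4 was 0.67 (SE 0.439) with Trp53+/+ and -1.07 (SE 0.417) with Trp53+/-. The Trp53 difference with Ddx41+/- was -0.28 (SE 0.472), and the interaction was -1.74 on the log2 scale (SE 0.604, adjusted p = 0.788 in edgeR). B cell markers were also higher in the Ddx41+/+ Trp53+/- mice than in the controls, with 11 of 11 higher and 6 called, among them Vpreb3, Ebf1, Blk, Ms4a1 and Cd79a, and they summed to 376.9 to 453.1 CPM there. In the Ddx41+/- Trp53+/- mice the same markers summed to 409.6 to 467.6 CPM. Of these sums Cd74, which other antigen-presenting cells also express, gave 210.2 to 264.1 CPM in the former mice and 255.8 and 296.6 CPM in the latter. T and NK cell markers summed to 26.2 to 31.0 CPM in the Ddx41+/+ Trp53+/- mice, to 21.1 to 25.6 CPM in the controls, to 25.3 to 31.2 CPM in the Ddx41+/- Trp53+/+ mice and to 25.2 to 26.4 CPM in the Ddx41+/- Trp53+/- mice. In the interaction 7 of the 8 T and NK cell genes were lower (median -0.81). All 11 B cell markers were lower in it too (median -1.095), and 9 of 10 macrophage and monocyte markers were higher (median 0.57), none called. Macrophage and monocyte markers summed to 1302 to 1365 CPM in the Ddx41+/+ Trp53+/- mice, 1394 to 1777 CPM in the controls and 1348 to 1848 CPM in the Ddx41+/- Trp53+/- mice. With Ddx41+/+, 9 of these 10 genes were lower in Trp53+/- mice (median -0.57), and with Trp53+/-, 9 of 10 were higher in Ddx41+/- mice (median 0.52), none called. The part of these cells in the Lig4 values was not tested.

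**Figure D4:**
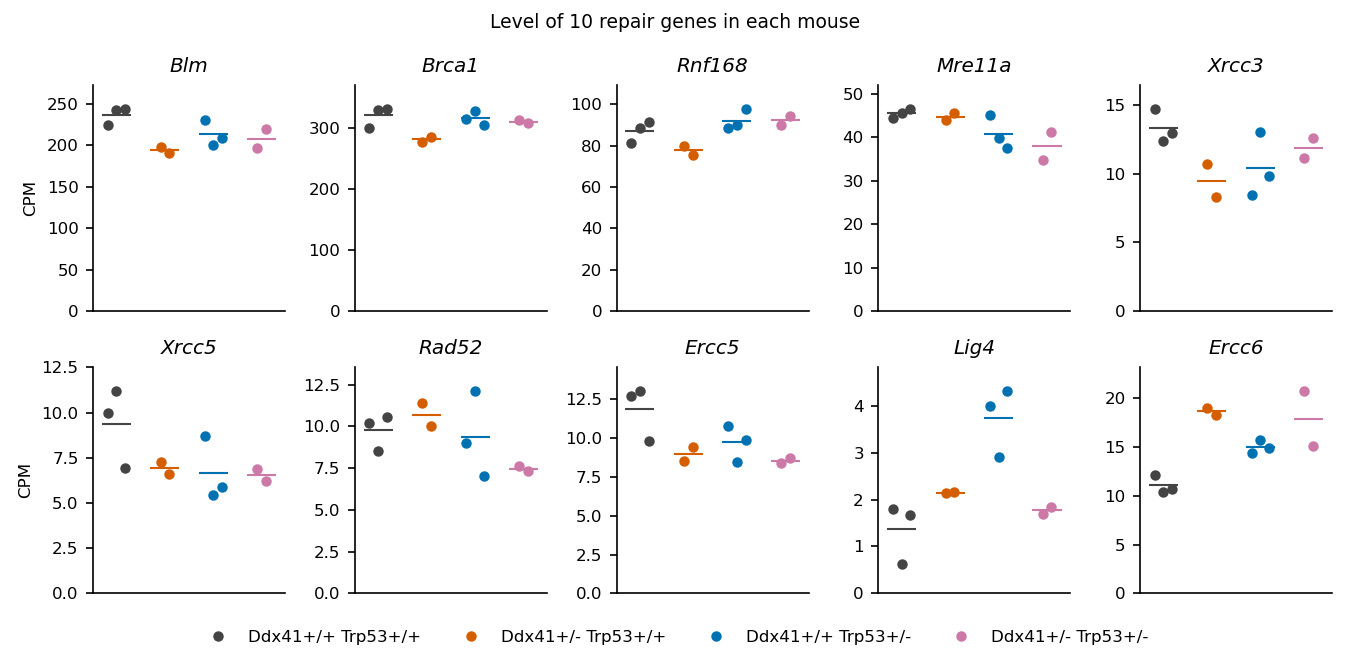
Level in CPM of 9 genes of the list and of Ercc6 in each mouse, with a horizontal line at the mean of each genotype. Axes start at 0. Lig4 is highest in the 3 Ddx41+/+ Trp53+/- mice, Blm and Brca1 are lowest in the 2 Ddx41+/- Trp53+/+ mice on average, and Ercc6 is lowest in the 3 Ddx41+/+ Trp53+/+ mice.

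With Ddx41+/+, none of the 35 genes passed the test for loss of 1 Trp53 allele, beside 108 of all tested genes (0.912%). The median difference was -0.06 on the log2 scale, 24 genes being lower and 11 higher, and 27 intervals lay within 1.5-fold. Xrcc5, which encodes Ku80, was at 9.97, 11.2 and 6.92 CPM in the controls and at 8.70, 5.44 and 5.88 CPM in the Ddx41+/+ Trp53+/- mice. These mice overlapped (log2 fold change -0.51, SE 0.222, adjusted p = 0.457), and its partner Xrcc6 had a log2 fold change of -0.13 (SE 0.0923). In the Ddx41+/- Trp53+/+ mice Xrcc5 was at 7.24 and 6.60 CPM, a log2 fold change of -0.43 (SE 0.253) against the controls. Lig4 and Xrcc5 were the 2 genes under an unadjusted p of 0.05 (5.71% of the list, beside 9.44% of all tested genes). The mice did not overlap for 5 genes (14.3%, beside 14.1%), with Fancd2 and Lig4 higher and Atr, Fanca and Rad50 lower. This comparison and the first one share the same 3 control mice.

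With Ddx41+/-, the Trp53+/- mice had the higher values for most of the list. Of the 35, 22 were higher and 13 lower, at a median of 0.07 on the log2 scale, and again none passed, beside 0.169% of all tested genes. Under an unadjusted p of 0.05 were 2 genes (5.71%, beside 5.41%). Rnf168, the ubiquitin ligase that marks histone H2A at breaks, was at 80.1 and 75.6 CPM in the Ddx41+/- Trp53+/+ mice and at 90.3 and 94.5 CPM in the Ddx41+/- Trp53+/- mice (log2 fold change 0.25, SE 0.0966, adjusted p = 0.831). Rad52, which anneals single strands, was at 11.4 and 10.03 against 7.61 and 7.35 CPM (log2 fold change -0.52, SE 0.244, adjusted p = 0.906). Xpc had the largest difference, at 4.81 and 2.67 against 5.23 and 6.51 CPM (log2 fold change 0.60, SE 0.345), with the lowest value from the library with the fewest counts. Xrcc2, also of homologous recombination, was at 9.98 and 8.76 against 5.05 and 10.1 CPM (log2 fold change -0.31, SE 0.289), where the mice overlapped.

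The 2 against 2 mice of that comparison did not overlap for 19 of the 35 genes (54.3%), beside 37.3% of all tested genes. Of the 19, 16 were higher in the Ddx41+/- Trp53+/- mice and Lig4, Mre11a and Rad52 were lower. Cell-cycle genes lay higher as well, with 17 of 23 S phase and 18 of 20 G2 and mitosis genes, and none passed the test. Cdkn1a fell from 16.6 and 15.6 to 5.87 and 4.99 CPM in the same mice (log2 fold change -1.57, SE 0.25, adjusted p = 0.00973). That call was lost without any 1 of these 4 mice (adjusted p = 0.0744 to 0.235). This comparison shares its Ddx41+/- Trp53+/+ mice with the first one, so its values and those of the first are not independent.

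When each gene's effect was taken over both genotypes of the other gene, in an additive model, no gene of the list was called either. For Ddx41 none of the 35 genes passed (0.11% of all tested genes did), the median log2 fold change was -0.06 with 26 lower, and 32 intervals lay within 1.5-fold, those of Ercc1, Lig4 and Xrcc5 being the exceptions. Blm (-0.16, SE 0.0639, adjusted p = 0.483) and Ercc5 (-0.29, SE 0.135, adjusted p = 0.54) were under an unadjusted p of 0.05, which is 5.71% of the list beside 8.98% of all tested genes. Brca1 followed at -0.11 (SE 0.0522, adjusted p = 0.576). For Trp53 none passed (0.287% of all tested genes did), the median was 0.01, and 30 intervals lay within 1.5-fold.

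Under an unadjusted p of 0.05 for Trp53 were Mre11a, Rnf168, Fanca and Lig4, which is 11.4% of the list beside 11.2% of all tested genes. Mre11a, the nuclease of the break-sensing complex, was at 44.4, 45.5, 46.6, 43.9 and 45.6 CPM in the 5 Trp53+/+ mice and at 45.1, 39.7, 37.6, 34.7 and 41.2 CPM in the 5 Trp53+/- mice (log2 fold change -0.19, SE 0.0755, adjusted p = 0.357). All but 1 of the Trp53+/- mice lay below all Trp53+/+ mice. Fanca, a subunit of the Fanconi core complex, was at 66.1, 64.5, 60.8, 55.2 and 64.0 CPM in the Trp53+/+ mice and at 55.5, 60.6, 52.2, 54.3 and 56.3 CPM in the Trp53+/- mice (log2 fold change -0.15, SE 0.0676, adjusted p = 0.41). Rnf168 had a log2 fold change of 0.15 (SE 0.0614, adjusted p = 0.384). Lig4 had the largest value of this comparison, 0.80 (SE 0.356, adjusted p = 0.413), and Xrcc5 followed at -0.35 (SE 0.176) and Xrcc2 at -0.31 (SE 0.176). Without replicate 24 of the Ddx41+/+ Trp53+/- mice none of the 35 genes was under an unadjusted p of 0.05, without replicate 10 of the controls 1 was, and without replicate 11 of the controls or replicate 46 of the Ddx41+/- Trp53+/- mice 2 were.

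A few of the genes lie on the chromosomes of the engineered loci. Trp53 lies at chr11:69580359-69591873 (mm10, GENCODE M21). On the same chromosome are Rad50, 15.9 Mb away, Rad51c, 17.8 Mb away, and Brca1, 31.9 Mb away. Their log2 fold changes for Trp53 over both Ddx41 genotypes were -0.09 (SE 0.0612), 0.03 (SE 0.106) and 0.04 (SE 0.051). Fancc lies 7.75 Mb from Ddx41 on chromosome 13 and was at 21.9 to 27.0 CPM in the controls and at 27.2 and 26.04 CPM in the Ddx41+/- Trp53+/+ mice.

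For some of the genes the count can hold reads of a neighbor. Of the exon bases of Ddb2, 23.8% also belong to exons of Acp2 on the other strand, of Fancc 18.6%, of Fanci 16.0% to Polg, of Rad54l 15.4% to Lrrc41, and of Rnf8 13.2% to a gene model on the same strand. Of the stretches of 75 bases in the longest Rnf8 transcript, 28.1% also occur in a transcript of another gene. How many of the reads of these 5 genes come from a neighbor was not measured, and a share of bases does not give it. For the 4 whose neighbor lies on the other strand, it depends on the strand setting of the counting. That setting is not given in the sources used here. Blm, Brca1, Lig4, Xrcc5, Atm and Ercc5 overlapped no other exon and shared no such stretch.

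A wider list of 140 other repair and checkpoint genes, 136 of them tested, was examined in the same way. In the comparison of Ddx41+/- with Ddx41+/+ in Trp53+/+ mice, 89 of 136 were lower and the median log2 fold change was -0.08. Over all tested genes 49.7% were lower and the median was 0.001. Under an unadjusted p of 0.05 in edgeR were 15 of the 136, beside 9.64% of all tested genes. Of the 21 other nucleotide excision genes in the wider list 11 were higher. Ercc6, which encodes the CSB protein of transcription-coupled repair, was the only gene of the wider list that passed a test, and it rose. It was at 12.1, 10.5 and 10.7 CPM in the Ddx41+/+ Trp53+/+ mice and at 19.0 and 18.3 CPM in the Ddx41+/- Trp53+/+ mice (log2 fold change 0.75, SE 0.164, adjusted p = 0.0498). It was at 14.4, 15.7 and 14.9 CPM in the Ddx41+/+ Trp53+/- mice and at 20.7 and 15.1 CPM in the Ddx41+/- Trp53+/- mice, so all 7 heterozygous mice lay above the 3 controls. The call did not hold under 12 of 19 other settings, among them the removal of replicate 10, 11, 12, 22, 23, 24, 32 or 34, and the adjusted p was 0.384 without replicate 32. In the other 6 comparisons none of the 136 genes passed, with 4 to 10 of them under an unadjusted p of 0.05. Of all tested genes, 3.75% to 11.2% were under that limit in these comparisons.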

How the data were processed

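RNA of CD71+Ter119+ bone marrow cells was measured in 10 libraries of 4 genotypes. The deposited values are raw counts of reads for each gene symbol and are not normalized. The submitters' processing notes name FastQC 0.11.7, HISAT2 2.0.5, featureCounts 1.5.2 and mm10, while the annotation and strand setting of the counting are not given in the sources used here. The labels name a stranded TruSeq kit and the study's methods an unstranded one. The 2 mice whose columns are named as left out (35 and 45) were not analysed here, and a few single marker values are not reported here.

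The 35 genes and all other lists were chosen with earlier results of these data known. Genes were kept by edgeR's filter by genotype (11846 of 24421), scaled by TMM and fitted with 1 mean per genotype in edgeR 4.0.16 (R 4.3.3), or with an additive model, and tested with the two-sided quasi-likelihood test and Benjamini-Hochberg adjustment over all tested genes. Calls needed an adjusted p under 0.05 together with a difference of more than 1.5-fold. Mice are the replicates, and no pair of libraries agreed within sampling noise. Totals of 7866648 to 20283930 counts set the counting error, and with 2 or 3 mice per genotype the spread between mice limits precision. RPKM used the joined exons of all transcripts of a gene in GENCODE M21. Genes described singly were picked by rule. The rule took the 3 largest differences in each comparison of single genotypes and the 3 smallest p in each additive comparison. It also took the 3 highest and lowest levels, the checkpoint kinases, Ddb2, Xpc and any other repair gene called. Values are given per mouse or as mean and SD, for some genes in part of the genotypes only. Rad51c is named in addition for its unadjusted p, chosen after its values were seen. Alternatives were DESeq2 1.42.0, its size factors, other filters, the likelihood ratio test, other thresholds, fits of only the genotypes compared, 8 mice without replicates 12 and 23, and each mouse left out in turn. Figures were drawn with matplotlib in Python.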

Additional observations from a re-analysis of the deposited data

How the results depend on the processing

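No paired analysis was possible because the labels give every mouse its own number. None of the 35 genes was called for Ddx41 with Trp53+/+, for Trp53 with Ddx41+/- or for Ddx41 over both Trp53 genotypes under any alternative run. For Trp53 with Ddx41+/+ 1 gene, Lig4, was called with DESeq2, with no filter on low counts, with the likelihood ratio test and when p was left unadjusted. With the unadjusted p, 1 gene (Lig4) was called for Ddx41 with Trp53+/-, 2 (Lig4 and Xrcc3) for the interaction and 1 (Lig4) for Trp53 over both Ddx41 genotypes. Leaving out 1 mouse at a time moved the median log2 fold change of the list to between -0.08620 and -0.01315 for Trp53 with Ddx41+/+ (highest without Ddx41+/+ Trp53+/+ replicate 12), between 0.02282 and 0.1236 for Trp53 with Ddx41+/- (lowest without Ddx41+/- Trp53+/+ replicate 34, highest without replicate 32), between -0.02425 and 0.03861 for Ddx41 with Trp53+/- (highest without Ddx41+/- Trp53+/- replicate 46) and between 0.08301 and 0.1676 for the interaction (highest without replicate 46). For Ddx41 with Trp53+/+ it stayed between -0.1459 and -0.07704. Over all genes, 131 were called with DESeq2, 182 with the likelihood ratio test and 243 without a filter in place of 64 for Ddx41 with Trp53+/+, 26 and 13 without replicates 32 and 34, and for Trp53 with Ddx41+/+ 161, 219 and 250 in place of 108, 66 in a fit of only those genotypes and 35 without replicate 24. The first of these counts was also 103 without replicate 12 and 123 over the 8 mice, and with p unadjusted the 2 counts were 540 and 535. With adjusted p, the alternatives called 1 to 39 genes in place of 5 for Ddx41 with Trp53+/-, 13 to 67 in place of 20 for Trp53 with Ddx41+/-, 7 to 100 in place of 8 for the interaction, 2 to 94 in place of 13 for Ddx41 over both Trp53 genotypes and 14 to 181 in place of 34 for Trp53 over both Ddx41 genotypes. Counts of 13 to 74 reads limit Lig4, and the cause of its differing calls was not tested.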
